A study of Drosophila melanogaster with 14 samples.

Results

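BEAF-32 was followed from 3 h to 48 h of treatment with 20-hydroxyecdysone, the moulting hormone of insects. The peaks are those of the BEAF-32 lists at these times that lie on the main chromosome arms X, 2L, 2R, 3L, 3R and 4. They number 5882 at 3 h and 5896 at 48 h, or 11778 of the 13366 peaks that the 2 lists hold on all sequences and of the 81028 peaks of the series. A shared peak overlaps a peak of the other list by 1 bp or more. A lost peak of 3 h, or a gained peak of 48 h, lies more than 1 kb from every peak of the other list.

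The series mapped 4 insulator proteins, CP190, Su(Hw), dCTCF and BEAF-32, by ChIP-seq, the sequencing of DNA that is precipitated with a protein out of chromatin, in Kc167, an established line of cells from Drosophila melanogaster embryos. Cells grew in serum-free medium and were untreated (0 h) or held for 3 or 48 h in 5e-07 M 20-hydroxyecdysone. The BEAF-32 antibody is named in the labels as raised against BEAF32B, a form of the protein. Each protein had 1 library at each time, so the 12 peak lists describe single libraries of 1 cell line, no test between times was run, and a difference between times cannot be told apart from a difference between libraries.

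Insulator proteins bind DNA elements that can limit contact between enhancers and promoters and mark borders between chromatin domains. BEAF-32, the boundary element associated factor, binds DNA directly, often close to promoters. CP190 reaches DNA mainly through partners such as BEAF-32, Su(Hw), which binds the gypsy insulator, and dCTCF, the fly counterpart of vertebrate CTCF. A site bound by a DNA-binding partner and by CP190 is a common form of insulator complex in fly cells.

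Most BEAF-32 sites were the same at both times, and those that differed were almost all weak. Of the 3 h peaks, 5454 (92.7%, 95% Wilson interval 92.0 to 93.4) were shared with the 48 h list, and of the 48 h peaks 5421 (91.9%, 91.2 to 92.6) were shared with the 3 h list. Such intervals cover counting error only. The lost peaks numbered 330, or 5.61% of the 3 h list, and the gained peaks 363, or 6.16% of the 48 h list. A further 98 peaks at 3 h and 112 at 48 h lay near a peak of the other list without touching it. The totals of 5882 and 5896 peaks thus differed by 14, while 330 peaks had no partner on the other side in one direction and 363 in the other. With the top 50% of each list by score alone, 79 peaks were lost and 86 gained. Over the whole lists the highest score was 861.4 for lost and 2100.25 for gained peaks. These lie below the median scores of 2371 at 3 h and 2232 at 48 h. Each of the 79 and 86 thus had a peak within 1 kb that fell outside the top 50% of the other list. On all sequences 665 were lost.

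Some peaks lay close to the distance of 1 kb: 69 peaks of 3 h and 81 of 48 h lay between 200 bp and 1 kb from the other list, and 47 lost and 70 gained peaks lay within 2 kb of it. Seen from 3 h, the farthest peak inside lay 980 bp from the nearest 48 h peak and the nearest lost peak 1023 bp away. Seen from 48 h, these distances were 999 and 1007 bp. The median distance to the other list was 6.31 kb for lost and 6.69 kb for gained peaks. The median gap between neighbouring BEAF-32 peaks of 1 list was 6.87 kb at 3 h and 6.99 kb at 48 h. These measures are unlike, as the distance to the other list takes the nearer side and starts above 1 kb.

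The deposited score of a peak is the authors' own value and ranks peaks within its own list. Where scores of a site at different times are given side by side, or the same score classes are used in several lists, they come from separate lists whose scales may differ, and they are not read as a change in binding. It starts at 100 and many peaks stand at a ceiling of 3100, where scores count as tied. The ceiling held 2702 peaks (45.9%) at 3 h and 2662 (45.1%) at 48 h, and every one of them was shared. None of the 1010 peaks between 1000 and the ceiling at 3 h was lost (interval up to 0.379%), and 6 of the 988 at 48 h were gained (0.607%). At the weak end, 241 of the 753 peaks with a score under 200 were lost (32.01%, 28.8 to 35.4) and 243 of 770 were gained (31.6%, 28.4 to 34.9). Between 200 and 500 the losses were 86 of 856 (10.0%) and the gains 105 of 867 (12.1%). Turnover in either direction was therefore concentrated in the lowest score classes, and the shares lost and gained lay within each other's intervals in the lowest class.

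**Figure D1:**
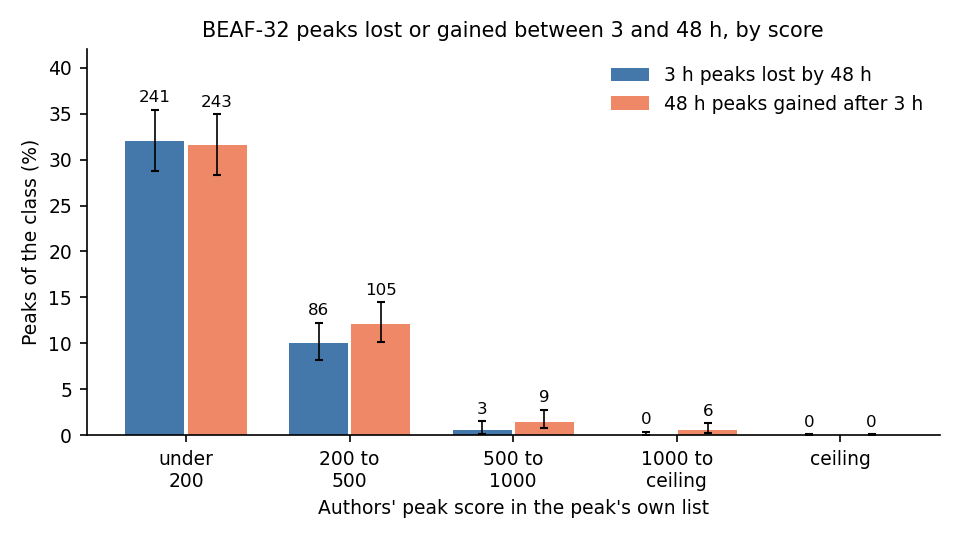
Share of BEAF-32 arm peaks lost (3 h list, blue) or gained (48 h list, orange) in 5 classes of the authors' score; bars are percentages of the class, error bars 95% Wilson intervals for counting error only, and the digits above the bars are peak counts. Both colours are near 32% under a score of 200 and at 0 in the ceiling class.

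The lost and gained peaks were also narrow. The median width was 521 bp for lost and 547 bp for gained peaks, against 818 bp for shared 3 h peaks and 853 bp for shared 48 h peaks. The median score was 151.5 among lost peaks, with a highest score of 861.4 and 3 peaks at 500 or more. Among gained peaks the median was 156.6, the highest 2100.25, and 15 peaks reached 500.

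Shared sites changed little in place or order. The 5224 pairs in which 1 peak met exactly 1 peak of the other list had a median offset of 25 bp between centres, and 89.3% of the pairs lay within 100 bp. The 48 h peak was the wider in 65.9% of pairs, with a median ratio of 1.03 for width at 48 h over width at 3 h. Across these pairs the ranks of the scores had a Spearman coefficient of 0.967, or 0.869 over the 2565 pairs below the ceiling at both times. These coefficients are descriptions across sites that share 2 libraries. No pair at the ceiling at either time had a score under 1000 at the other, whereas a pair under 200 at 3 h was under 200 again in 54.6% of 423 cases and between 200 and 500 in 41.8%.

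The chromosome arms differed little. On X, 57 of 1164 peaks were lost (4.90%, 3.80 to 6.29) and 86 of 1184 gained (7.26%, 5.92 to 8.88). On 2L, 4.36% were lost and 5.23% gained, the lowest pair among the large arms. On 2R, 3L and 3R between 6.09% and 6.27% were lost and between 5.44% and 6.80% gained. The small chromosome 4, with 82 and 77 peaks, lost 4 and gained 1.

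Changed peaks were scattered. Of the 1765 windows of 50 kb that held a BEAF-32 peak at either time, 1043 held the same number at both, and 46 held a gained and a lost peak together. The most gained peaks in a window were 4, at X:1700001-1750000, which had 2 peaks at 3 h and 5 at 48 h and also lost 1, and at X:9450001-9500000, which had 5 and then 10. The third window of the fullest gains, 2R:2000001-2050000, was 1 of 8 windows with 3 or more. No window lost more than 3 peaks: 5 windows did so, among them 2R:7550001-7600000, 3L:3400001-3450000 and 3L:8750001-8800000, each with 4 peaks at 3 h and 1 at 48 h.

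The untreated list gave the history of the changed peaks. Only 43 of the 330 lost peaks (13.0%, 9.82 to 17.1) overlapped a BEAF-32 peak at 0 h, and 283 had none within 1 kb, so these were listed at 3 h alone. Of the 363 gained peaks, 33 (9.09%, 6.55 to 12.5) overlapped a 0 h peak and 325 had none within 1 kb, so these were listed at 48 h alone. Shared 3 h peaks overlapped a 0 h peak in 68.4% of cases, and in 99.6% at the ceiling. Within the class under 200, the shares were 13.3% for lost and 15.2% for shared 3 h peaks, and 10.3% for gained and 14.3% for shared 48 h peaks. Between 200 and 500 they were 11.6% (6.44 to 20.1) for lost and 16.7% (14.2 to 19.5) for shared 3 h peaks, and 5.71% (2.64 to 11.9) for gained and 19.9% (17.1 to 22.9) for shared 48 h peaks. In that class gained peaks had a 0 h peak less often than shared peaks of a like score, beyond counting error. The 0 h arm list, with 4187 peaks, was shorter than both treated lists.

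The highest-scoring gained peaks lay where another protein often had a peak. The first, at 3R:7603793-7604886 (score 2100.25), is on a Su(Hw) peak listed at all times, with Su(Hw) scores of 606.4 at 0 h, 1022 at 3 h and 3100 at 48 h. The peak at X:21135850-21137428 (score 1823) also lies on Su(Hw) at all times, with scores of 140.3, 265.3 and 3100. At 3R:3792294-3793113 (score 1234) Su(Hw) stood at the ceiling at 0 and 3 h and at 1999 at 48 h. These peaks became BEAF-32 peaks at places where Su(Hw) was already listed, and CP190 was listed at none of them. At 3L:11359428-11360219 (score 1053) Su(Hw) had a peak at 3 and 48 h and dCTCF at 48 h only. The gained peak at 2R:21052581-21053236 (score 2007) met no peak of the other proteins at any time.

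Su(Hw) was the protein most often found at gained peaks. Of the 15 gained peaks with a score of 500 or more, 12 lay on a 48 h Su(Hw) peak (95% interval 54.8 to 93.0%), 8 on a 3 h Su(Hw) peak and 6 on Su(Hw) at all times. Shared 48 h peaks between 500 and the ceiling lay on Su(Hw) in 35.7% of 1579 cases (33.4 to 38.1). This group of 15 was singled out after its values were seen. Over all gained peaks 170 lay on a 48 h Su(Hw) peak (46.8%, 41.8 to 52.0), against 38.9% of shared 48 h peaks (37.6 to 40.2). In the score class of 200 to 500 the shares were 52.4% (42.9 to 61.7) for gained and 33.9% (30.6 to 37.4) for shared peaks, and under 200 they were 42.4% (36.3 to 48.7) and 34.5% (30.3 to 39.1). Of the 170, 30 had no 3 h Su(Hw) peak within 1 kb (17.6%, 12.7 to 24.1), and 9.08% of all 48 h Su(Hw) arm peaks were gained. Of the 48 h Su(Hw) peaks on a BEAF-32 peak, 9.89% were gained (8.77 to 11.1). These shares were not matched by Su(Hw) score.

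Lost peaks lay on Su(Hw) about as often as shared peaks did. The strongest, X:3185400-3186086 (score 861.4 at 3 h), already had a BEAF-32 peak at 0 h (434.0). It lay on Su(Hw) at 3 and 48 h and on dCTCF at 3 h only. At 2R:2595129-2595836 (score 835.7) Su(Hw) was listed throughout, with scores of 1574, 1518 and 3100, and dCTCF at 3 h only. At 3R:9948011-9948572 (score 619.75) CP190 was listed at all times, with scores of 193.1, 371.6 and 160.1, so that CP190 kept a site at which BEAF-32 was no longer listed. At 3R:22061218-22062219 (score 499.0) Su(Hw) alone had a peak at each time, and at 2R:11689816-11690415 (score 497.8) no other protein did. Over all 330 lost peaks, 136 lay on a 3 h Su(Hw) peak (41.2%, 36.03 to 46.6), close to the 41.5% of shared 3 h peaks. Su(Hw) was gone within 1 kb by 48 h from 26 of these 136 (19.1%, 13.4 to 26.5), beside 9.22% of all 3 h Su(Hw) arm peaks. Of the 3 h Su(Hw) peaks on a BEAF-32 peak, 14.8% were lost (13.5 to 16.2), within the interval for the 136. None of these shares was matched by Su(Hw) score.

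CP190 was listed less often at BEAF-32 peaks that came or went than at shared peaks. It was listed at 102 of the 330 lost peaks at 3 h (30.9%, 26.2 to 36.1) and at 66 of the 363 gained peaks at 48 h (18.2%, 14.6 to 22.5). Shared peaks had it in 65.5% of cases at 3 h and 57.3% at 48 h. At a like score the difference for lost peaks was smaller: under 200 they had CP190 in 30.7% and shared 3 h peaks in 33.9% of cases, and between 200 and 500 in 31.4% (22.6 to 41.8) and 43.0% (39.5 to 46.6). For gained peaks a difference was still there under 200, with 15.6% (11.6 to 20.7) against 31.4% (27.2 to 35.8) of shared 48 h peaks. Between 200 and 500 the shares were 23.8% for gained and 34.5% for shared 48 h peaks, with overlapping intervals. dCTCF lay at 25.8% of lost peaks at 3 h and at 20.9% of gained peaks at 48 h, against 39.6% and 32.9% of shared peaks. For dCTCF these differences were smaller or turned round at a like score: under 200 it lay at 26.6% of lost and 30.5% of shared 3 h peaks, and at 17.3% of gained and 19.3% of shared 48 h peaks, and between 200 and 500 at 28.6% of gained and 20.8% of shared 48 h peaks.

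When BEAF-32 was lost, CP190 mostly was not. Of the 102 lost BEAF-32 peaks with CP190 at 3 h, 21 had no CP190 peak within 1 kb at 48 h (20.6%, 13.9 to 29.4), beside 13.5% of all 3 h CP190 arm peaks, and 79 were on a CP190 peak at both times. Among 3 h CP190 peaks on a BEAF-32 peak 12.7% were lost, and these shares were not matched by CP190 score. Of the 66 gained BEAF-32 peaks with CP190 at 48 h, 63 were on CP190 at 3 h as well and 2 were on a CP190 peak without a 3 h peak within 1 kb. The latter are 3.03% (0.835 to 10.4), an interval that holds the 5.03% gained among all 48 h CP190 arm peaks. dCTCF was absent within 1 kb at 48 h from 35 of the 85 lost peaks that had it at 3 h (41.2%, 31.3 to 51.8), and 22.5% of all 3 h dCTCF arm peaks were lost. Among 3 h dCTCF peaks on a BEAF-32 peak 24.0% were lost, again without matching by score.

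**Figure D2:**
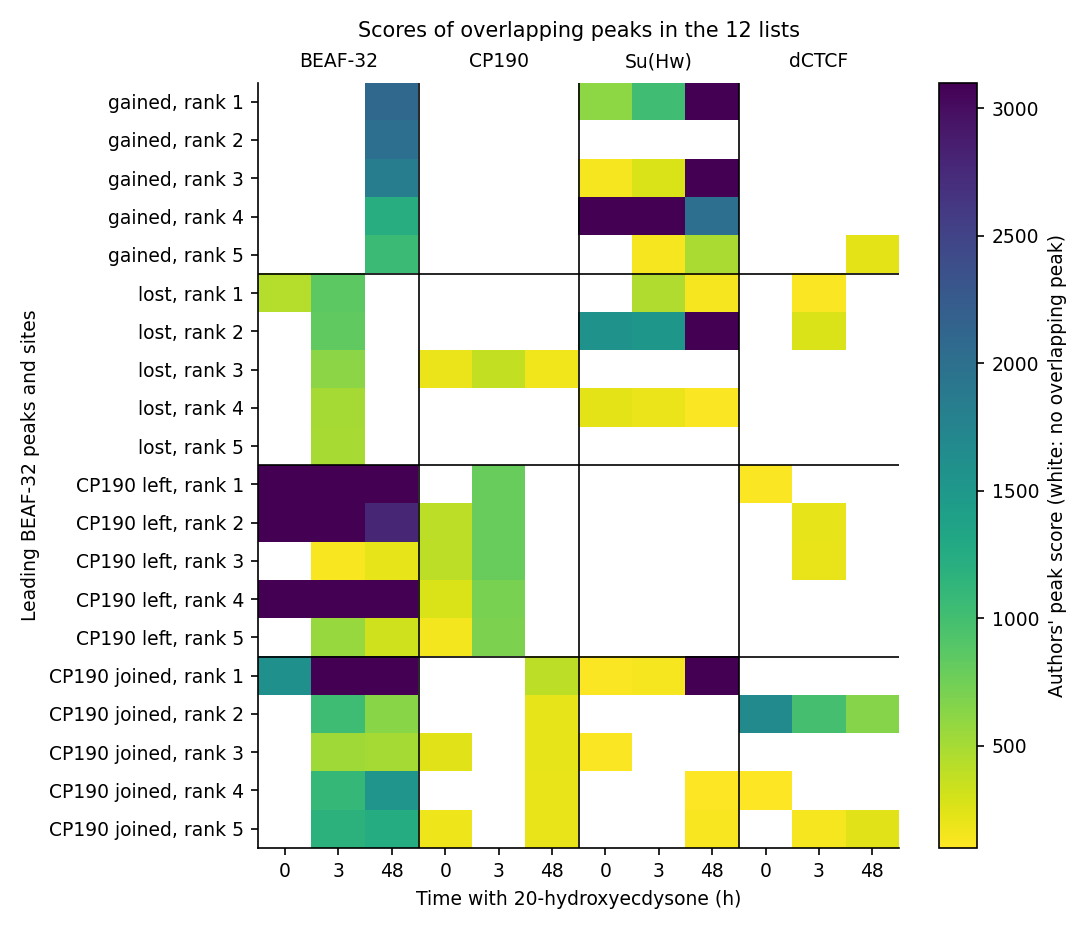
Authors' scores of the peaks that overlap the 5 leading gained, 5 leading lost, 5 leading CP190-left and 5 leading CP190-joined BEAF-32 peaks or sites, in each of the 12 lists (columns: proteins and hours with hormone; white: no overlapping peak; darkest: a score of 3100). Colours compare peaks within a column only; 3 of the 5 leading gained peaks have a Su(Hw) peak at all times, and at 3 of the CP190-left sites BEAF-32 stands at the ceiling at 0 and 3 h.

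The share of BEAF-32 peaks with CP190 was lower at 48 h. At 3 h CP190 was listed at 3703 BEAF-32 peaks (63.0%, 61.7 to 64.2), and at 48 h at 3182 (54.0%, 52.7 to 55.2), a difference of 8.99 percentage points. The CP190 arm list was itself shorter at 48 h, with 5667 peaks against 6254. With the lists of each protein shortened to equal length by score, the share was 58.4% at 3 h and the difference 4.34 points (2.54 to 6.13). That setting removes the weakest peaks of the longer list by construction, and the part of list length was not tested. Among the top 50% of each list by score, 41.1% of 3 h and 32.9% of 48 h BEAF-32 peaks had CP190. The direction was the same in every score class of BEAF-32. Under 200 the share was 32.7% at 3 h and 24.2% at 48 h, between 500 and 1000 it was 53.7% and 44.3%, and at the ceiling it was 78.4% and 70.1%.

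Where both proteins had a peak, their centres lay close together. The median distance from the centre of a shared BEAF-32 peak to that of a CP190 peak it overlapped was 81 bp at 3 h, for 3571 peaks, and 88.5 bp at 48 h, for 3106. For Su(Hw) it was 81.5 and 82.5 bp, and for dCTCF 79.5 bp at both times. The distances were of like size at both times.

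To follow the other proteins at fixed places, BEAF-32 peaks of 3 h and 48 h that overlapped each other were joined into 5359 sites, all of which held BEAF-32 at both times. CP190 was listed at 60.4% of these sites at 0 h (59.1 to 61.7), 65.8% at 3 h (64.5 to 67.1) and 57.6% at 48 h (56.3 to 58.9). Its share was thus highest at 3 h and at 48 h lay under that at 0 h. The CP190 arm lists followed the same order, with 5720, 6254 and 5667 peaks. The sites were drawn from 3 h and 48 h peaks, and 68.7% of them lay on a 0 h BEAF-32 peak. Su(Hw) was listed at 41.0%, 41.9% and 39.1% of the sites. dCTCF was listed at 39.9%, 40.04% and 33.2%. Each protein was listed at fewer of the sites at 48 h than at 3 h, and the arm lists of all 3 were shorter at 48 h.

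**Figure D3:**
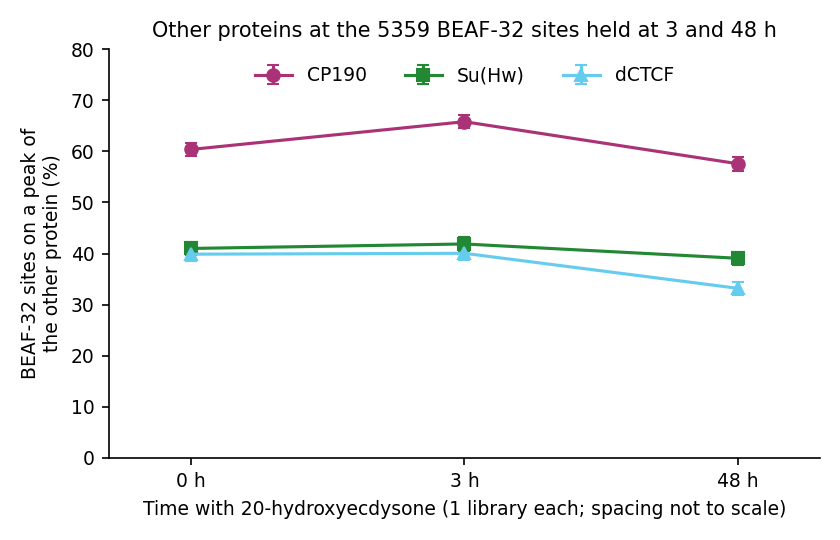
Share of the 5359 BEAF-32 sites held at 3 and 48 h that overlap a peak of CP190 (circles), Su(Hw) (squares) or dCTCF (triangles) at 0, 3 and 48 h, 1 library for each point, with 95% Wilson intervals for counting error only. CP190 stands at 60.4%, 65.8% and 57.6%, and dCTCF at 39.9%, 40.04% and 33.2%.

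Site by site, CP190 departures far outnumbered arrivals. CP190 was kept at 3021 sites, was absent within 1 kb at 48 h from 444 of the 3527 sites that had it at 3 h (12.6%, 11.5 to 13.7), and was newly listed at 57 of the 3086 sites that had it at 48 h (1.85%, 1.43 to 2.39). The 444 sites lay on 436 CP190 peaks. A further 1767 sites had CP190 at neither time, and at 70 CP190 touched the site at one time and lay within 1 kb of it at the other. Over all CP190 arm peaks, 13.5% of those at 3 h were lost and 5.03% of those at 48 h were gained. The departures were thus near the share for CP190 as a whole, while the arrivals were below it. With CP190 lists of equal length the shares were 8.34% for departures and 3.73% for arrivals. In the top 50% of each list by score departures were 19.9%, but a 48 h CP190 peak outside that top 50% then counts as absent. Over the whole lists CP190 left 2.66% of sites with a CP190 score between 500 and 1000, and none with 1000 or more.

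The other partners had departures and arrivals that were closer in number. Su(Hw) was absent within 1 kb at 48 h from 334 of 2244 sites (14.9%, 13.5 to 16.4) and newly listed at 193 of 2094 (9.22%, 8.05 to 10.5), while over all Su(Hw) arm peaks 9.22% were lost and 9.08% gained. dCTCF was absent from 496 of 2146 sites (23.1%, 21.4 to 24.9) and newly listed at 161 of 1779 (9.05%, 7.80 to 10.5), while over all dCTCF arm peaks 22.5% were lost and 8.82% gained. Arrivals as a share of sites at 48 h were thus lowest for CP190.

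CP190 departures went with the score of CP190 far more than with that of BEAF-32. Where the 3 h CP190 score was under 200, CP190 was gone from 262 of 437 sites (60.0%, 55.3 to 64.4). Between 200 and 500 it was gone from 166 of 777 (21.4%, 18.6 to 24.4), and between 500 and 1000 from 16 of 601 (2.66%). No site with a CP190 score of 1000 or more was left, out of 815 below and 897 at the ceiling. By the score of BEAF-32 at 3 h, the share ran from 10.6% of 142 sites under 200, through 19.9% of 307 between 200 and 500, to 11.9% of 2108 at the ceiling. Of the 444 sites that CP190 left, 240 (54.1%) had BEAF-32 at the ceiling at both times. As 2108 of the 3527 sites with CP190 at 3 h had BEAF-32 at the ceiling at that time, sites with the strongest BEAF-32 were left about as often as sites in general.

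Sites with CP190 already at 0 h were left less often. Of the 444 sites, 222 had CP190 at 0 h and 222 did not. These were 7.06% of the 3143 sites with CP190 at 0 and 3 h (6.22 to 8.01) and 57.8% of the 384 with CP190 at 3 h but not at 0 h (52.8 to 62.7). The difference was there within score classes too: under 200 the shares were 47.4% of 209 and 71.5% of 228, and between 200 and 500 they were 16.6% of 652 and 46.4% of 125. In all, 258 sites had CP190 at 3 h only, 248 at 0 and 3 h, 126 at 3 and 48 h, and 2895 at all 3 times. At sites where BEAF-32 itself was not listed at 0 h, CP190 left 142 of 809 (17.6%, 15.1 to 20.3), against 302 of 2718 where it was (11.1%, 9.98 to 12.3).

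Sites that also held Su(Hw) and dCTCF at 3 h seldom lost CP190. CP190 was gone from 53 of 1408 sites with both (3.76%, 2.89 to 4.89), 38 of 507 with dCTCF only (7.50%, 5.51 to 10.1), 55 of 387 with Su(Hw) only (14.2%, 11.1 to 18.0) and 298 of 1225 with neither (24.3%, 22.01 to 26.8). The score of CP190 moved with these groups: the median at CP190 peaks on BEAF-32 was 2957 with both partners and 352.9 with neither. Among sites with a CP190 score under 200, the shares were 61.7% with both, 61.0% with dCTCF only, 56.9% with Su(Hw) only and 60.1% with neither. The order by partners was thus not seen at a like low CP190 score. Between 200 and 500, dCTCF only was lowest with 11.6% of 86 (6.44 to 20.1) and neither highest with 23.9% of 481 (20.3 to 27.9).

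The CP190 peaks with the highest 3 h scores among those that left BEAF-32 sites were below the ceiling. The leading peak, with a score of 793.5, spanned 3 neighbouring BEAF-32 sites at 2L:21656627-21657183, 2L:21657271-21658262 and 2L:21658270-21659494. At the last of these BEAF-32 stood at the ceiling at 0, 3 and 48 h, and at the middle one at the ceiling at 0 and 3 h with 2773 at 48 h. Su(Hw) was not listed at any of the 3. At X:16702664-16703947 BEAF-32 stood at the ceiling at all times while CP190 had 269.8 at 0 h, 705.4 at 3 h and no peak within 1 kb at 48 h. At 3L:16221575-16222338 CP190 had 151.55 and 691.7 and then none, with BEAF-32 at 559.5 at 3 h and 321.2 at 48 h. At none of the 5 was Su(Hw) listed at any time.

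The strongest CP190 arrivals were weak peaks on existing BEAF-32 sites. At 2L:93992-95101 CP190 had a score of 395.7 at 48 h and no peak before, BEAF-32 stood at 1593 at 0 h and at the ceiling at 3 and 48 h, and Su(Hw) had 113.2, 144.0 and then 3100. At 3L:20106059-20106629 CP190 reached 213.55 where dCTCF was listed at all times. At 2R:3673188-3673787 and 2L:20115782-20116436 CP190 had peaks at 0 h (235.5 and 179.9) and at 48 h (205.7 and 202.2), and none at 3 h. At 3L:21124200-21125045 CP190 appeared at 203.9, and BEAF-32 had 1106 at 3 h and 1538 at 48 h.

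The same CP190 changes were set beside CP190 peaks without BEAF-32. Of the 3 h CP190 peaks on a BEAF-32 peak, 452 of 3567 were lost (12.7%, 11.6 to 13.8), against 395 of 2687 off BEAF-32 (14.7%, 13.4 to 16.1). This small difference turned round with score: among CP190 peaks under 200, 57.4% on BEAF-32 (52.9 to 61.8) and 48.1% off it (43.9 to 52.4) were lost. In the top 50% of each list the share off minus the share on BEAF-32 was -8.34 points, against 2.03 over the whole lists. New CP190 peaks at 48 h were mostly elsewhere: 59 of 3108 on BEAF-32 were gained (1.90%, 1.47 to 2.44), against 226 of 2559 off it (8.83%, 7.79 to 9.99). That difference was there at a like CP190 score, with 9.28% against 26.3% under 200 and 0.632% against 13.5% between 200 and 500. None of the 500 CP190 peaks on BEAF-32 between 500 and 1000 was gained, against 13 of 378 off it.

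**Figure D4:**
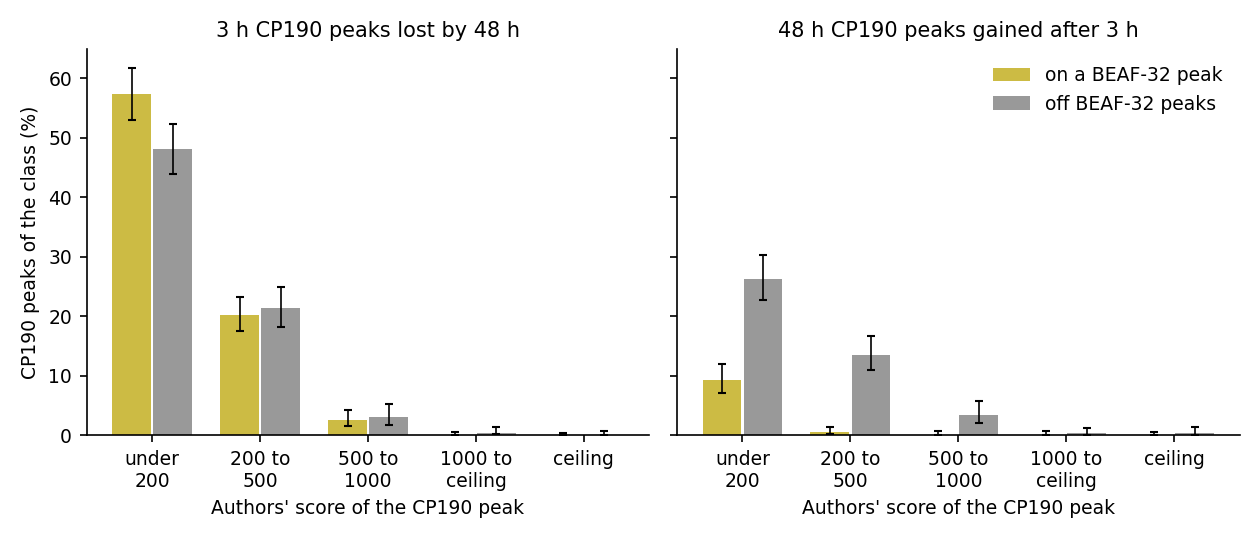
Share of 3 h CP190 arm peaks lost by 48 h (left) and of 48 h CP190 arm peaks gained after 3 h (right) in 5 classes of the authors' CP190 score, on a BEAF-32 peak of the same time (yellow) and off BEAF-32 peaks (grey), with 95% Wilson intervals for counting error only. Under a score of 200 the losses are 57.4% on and 48.1% off BEAF-32, and the gains 9.28% on and 26.3% off it.

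The gains of Su(Hw) and dCTCF were set out in the same way. Over all Su(Hw) peaks 9.89% on and 8.74% off BEAF-32 were gained, but the direction turned at a like Su(Hw) score: 21.9% on and 35.3% off under 200, and 6.63% and 17.6% between 200 and 500. For dCTCF 9.77% on and 7.55% off BEAF-32 were gained over all peaks, 28.7% and 30.9% under 200, with overlapping intervals, and 7.19% and 17.5% between 200 and 500. Between scores of 200 and 500, fewer 48 h peaks on BEAF-32 than off it were thus new for each of the 3 proteins. Of the 3 h Su(Hw) peaks 14.8% of 2578 on BEAF-32 and 6.78% of 5914 off it were lost, with 36.1% and 32.1% under 200 and 9.08% and 10.8% between 200 and 500. For dCTCF 24.0% on and 20.6% off BEAF-32 were lost, and here too the direction turned within classes, with 51.8% and 64.0% under 200 and 19.9% and 26.6% between 200 and 500.

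Taking the 3 partners together, fewer sites had all 4 proteins listed at 48 h and more had BEAF-32 listed alone. These were mostly different sites: of the 1408 with all 4 proteins at 3 h, 12 had BEAF-32 alone at 48 h (0.852%). All 4 proteins were listed at 1408 of the 5359 sites at 3 h (26.3%, 25.1 to 27.5) and at 1209 at 48 h (22.6%, 21.5 to 23.7). BEAF-32 alone was listed at 1307 (24.4%, 23.3 to 25.6) and then at 1690 (31.5%, 30.3 to 32.8). The arm lists of all 3 partners were shorter at 48 h, and the part of list length in these counts was not tested. The set of proteins was the same at both times at 3706 sites (69.2%, 67.9 to 70.4). The most stable sets were BEAF-32 alone, unchanged at 92.5% of its 1307 sites, and all 4 proteins, unchanged at 75.9% of 1408.

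By number of sites, the largest single move was from BEAF-32 with CP190 to BEAF-32 alone. Of the 1225 sites with BEAF-32 and CP190 at 3 h, 790 (64.5%) were the same at 48 h and 314 (25.6%, 23.3 to 28.2) had BEAF-32 alone. By share of the starting sites, moves from smaller groups were larger, such as that of 81 of the 155 sites with Su(Hw) and dCTCF to Su(Hw) only (52.3%) and of 39 of the 76 with dCTCF to BEAF-32 alone (51.3%). In the other direction, 46 of the 1307 sites with BEAF-32 alone took up CP190 (3.52%, 2.65 to 4.66). From sites with all 4 proteins, dCTCF alone dropped out at 141, Su(Hw) alone at 96 and CP190 alone at 33. Where BEAF-32, CP190 and dCTCF were together without Su(Hw), 155 of 507 sites (30.6%) kept CP190 only and 17 kept dCTCF only. Where Su(Hw) took the place of dCTCF, 91 of 387 sites kept CP190 only and 37 kept Su(Hw) only. In these moves from sites with 3 or 4 proteins, dCTCF or Su(Hw) thus dropped out more often than CP190 did. Over all 3 h arm peaks, 22.5% for dCTCF, 13.5% for CP190 and 9.22% for Su(Hw) were lost. Those losses ask for no peak within 1 kb, whereas the moves count overlap only. The moves were not matched by score, and the median score of CP190 peaks on BEAF-32 with both partners was 2957.

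**Figure D5:**
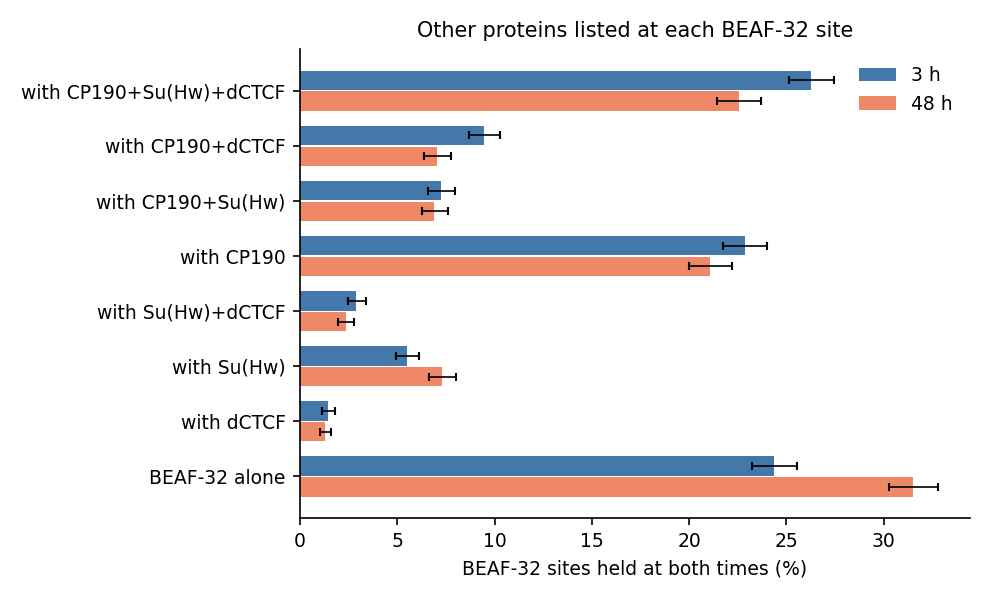
Share of the 5359 BEAF-32 sites by the other proteins listed there at 3 h (blue) and 48 h (orange), with 95% Wilson intervals for counting error only. Sites with all 3 others are 26.3% and then 22.6%, and sites with BEAF-32 alone 24.4% and then 31.5%.

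Departures of CP190 and dCTCF from 1 site coincided at few places. Of 1915 sites with BEAF-32, CP190 and dCTCF at 3 h, 41 lost both within 1 kb, 336 lost dCTCF and kept CP190, and 48 lost CP190 and kept dCTCF. CP190 left 10.8% of the 379 sites that dCTCF left (8.08 to 14.3) and 3.19% of the 1505 that dCTCF kept (2.41 to 4.20). At CP190 scores under 200 these shares were 61.5% of 39 and 64.4% of 45, and between 200 and 500 they were 19.0% of 79 (11.9 to 29.0) and 12.9% of 124 (8.10 to 19.9), with overlapping intervals in both classes. For Su(Hw), CP190 left 13.1% of the 268 sites that Su(Hw) left and 4.86% of the 1502 that it kept. Under a CP190 score of 200 these were 63.6% of 33 (46.6 to 77.8) and 57.7% of 71 (46.2 to 68.5), and between 200 and 500 they were 22.95% of 61 (14.2 to 34.9) and 18.5% of 146 (13.03 to 25.6), again with overlapping intervals.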

How the data were processed

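ChIP-seq peak lists of 4 proteins at 0, 3 and 48 h were used, 1 library each; 2 input libraries were not analysed here. Each deposited list has 5 columns, and the last column holds a score that the authors gave each peak, with a definition not given in the sources used here. Per the submitters' processing notes, alignment used Bowtie 0.12.5, and peak names carry the prefix of MACS, per the files themselves. The caller's version, its control and the genome build were likewise not given in the sources used here. Sequence names are those of Release 5. Starts were raised by 1, so that coordinates count from 1. Read depth is unknown.

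U, Uextra, sequences ending in Het and the mitochondrion were left out. Peaks of 2 lists were compared by overlap, and scores were grouped at limits of 200, 500, 1000 and 3100, the same in every list; how scores of different lists relate is unknown. The peaks named are the 5 gained and 5 lost with the highest scores, the 5 sites where CP190 left and the 5 where it joined with the highest CP190 scores, and the 3 fullest windows of 50 kb for gained and for lost peaks. Rules, classes and comparisons were chosen with earlier results of these data known. Gene positions and DNA motifs needed a genome of that release and were not run. The overlap code was tested on simulated data. Python 3.11.15, numpy 2.4.6, pandas 2.3.3, scipy 1.17.1, statsmodels 0.14.6 and matplotlib 3.10.9 were used.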

Additional observations from a re-analysis of the deposited data

Results flagged for a closer look

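From 3 h to 48 h the number of BEAF-32 peaks on the arms changed by 14 and that of CP190 by -587. With 1 library each, this difference was not tested. Su(Hw) changed by -163 and dCTCF by -752.

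The unplaced sequences U and Uextra, which were left out above, held 782 BEAF-32 peaks at 3 h and 486 at 48 h. Of the former, 315 were lost (40.3%, 36.9 to 43.8), against 5.61% on the arms, and of the latter 59 were gained (12.1%, 9.53 to 15.3). Other proteins did not change alike there: CP190 changed by -4 and dCTCF by 437 peaks. These differences were not tested.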

How the results depend on the processing

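No paired analysis was possible because each protein and time has 1 library. Of 80 alternative values for 11 results, 53 were classed as the same by a broad rule, 25 as moved and 2 as reversed. Not all of the 53 were near the main value. They include 428 lost and 475 gained peaks when only overlap counted, against 330 and 363 in the main setting. With a distance of 2 kb the counts were 283 and 293, also classed as the same. So was 0.874 points at equal length, against 2.03, for CP190 losses off minus on BEAF-32. Shared 3 h BEAF-32 peaks were 88.9% with centres within 250 bp, 96.9% in the top 50% of each list by score and 88.2% on all sequences. Shared 48 h peaks were 88.7% and 96.5% by the first 2 of these. In the top 50%, 79 peaks were lost and 86 gained, and on all sequences 665 were lost. Every count of lost, gained, left or joined in the top 50% can include peaks whose partner fell outside it. BEAF-32 peaks on CP190 at 3 h were 53.1% with centres within 250 bp, 41.1% in the top 50%, 58.4% with lists of equal length and 58.6% on all sequences. At 48 h they were 45.1%, 32.9% and, on all sequences, 51.1%. The difference was 4.34 points with lists of equal length. CP190 left 14.3% of sites when only overlap counted, 19.9% in the top 50% and 8.34% at equal length, where it joined 3.73%. The share of CP190 peaks lost off BEAF-32 minus that on BEAF-32 was 2.03 points, but -8.34 in the top 50%. It was -9.28 for CP190 scores under 200 and 0.637 for scores of 200 or more. Alternatives for that result and for CP190 gains off minus on BEAF-32 were chosen after seeing the data. Equal length removes the weakest peaks of the longer list by construction. No cause of these differences was tested.

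Single libraries of unknown depth limit every comparison, and the part of depth in the weak peaks listed at one time only was not tested.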
